A study of Mus musculus with 4 samples.

Results

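Monocytes and monocyte progenitors were examined as single cells from the bone marrow (BM) and spleen of control and tumor-bearing mice. They were selected on 5 monocyte genes: *Csf1r*, *F13a1*, *Ccr2*, *Ly6c2*, and *Ms4a6c*. A barcode counted as a member when it had at least 1000 detected genes and at most 10% mitochondrial UMIs. At least 3 of the 5 genes had to be detected, and together they had to reach 10 UMIs per 10000. *Csf1r* and *F13a1* together had to exceed 3 UMIs, and the complement genes *C1qa*, *C1qb*, and *C1qc* had to stay below 10 UMIs per 10000, which leaves out C1q-expressing macrophages. Of 16261 barcodes within the gene and mitochondrial limits, 1620 met these criteria.

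The study compared spleen and BM of C57BL/6J mice that carried a PyMT-B6 tumor with those of control mice, all aged 8 to 16 weeks. PyMT-B6 is a mammary tumor line of MMTV-PyMT origin, in which the MMTV promoter, active in the mammary gland, drives the PyMT oncogene. The tissues were digested with collagenase and DNase, depleted of lineage-positive cells, and sorted into hematopoietic (Lin-/CD45+/c-Kit+, with and without Sca-1) and CD45- stromal and endothelial populations. These were mixed in equal ratios, so the share of a cell type describes the mixture and not the organ. The 4 libraries are named CBM and CS, for BM and spleen of control mice, and TBM and TS, for the same organs of tumor-bearing mice. Each group was 1 library, so no difference between groups had a replicate check, and no test between conditions was possible. The number of mice behind a library was not given in the sources used here. All intervals given are exact 95% intervals that cover counting error only.

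Monocytes are phagocytes that can form in BM from granulocyte-monocyte progenitors through committed monocyte progenitors, and the transcription factors *Irf8*, *Klf4*, and *Zeb2* act along this route. Early members of the route still hold the azurophil granule enzymes *Mpo*, *Elane*, *Prtn3*, and *Ctsg*, which are lost as the cells mature into classical Ly6C-high monocytes. Inflammation and tumors are known to redirect myeloid output, and monocytes that carry genes usually found in neutrophils (neutrophil-like) or in dendritic cells (dendritic-like) have been described as separate forms.

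Members made up 797 of 3497 barcodes in CBM (22.8%, 21.4% to 24.2%) and 648 of 4340 in TBM (14.9%, 13.9% to 16.0%). They made up 97 of 3236 in CS (3.0%, 2.44% to 3.64%) and 78 of 5188 in TS (1.5%, 1.19% to 1.87%). The spleen libraries thus gave few members, and erythroid cells filled much of them (1349 barcodes in CS and 2931 in TS, against 200 in CBM and 137 in TBM). Erythroid cells were barcodes outside the member gate with *Car1* and *Klf1* together at 10 or more UMIs per 10000. Barcodes with 20 or more UMIs per 10000 of *Mpo*, *Elane*, *Prtn3*, and *Ctsg* were left out. Also left out were C1q-expressing macrophages and barcodes with at least 2 of *Ltf*, *Camp*, *Ngp*, and *Lcn2* at 30 or more UMIs per 10000 together. The erythroid background of granule genes was thus limited by this choice. The median member held 26831 UMIs in CBM against 36963 in TBM, and 42607 in CS against 35366.5 in TS. Their summed UMIs were 20941350, 23573476, 4151678, and 2749796 in the same order, so a count of 3 UMIs, taken as the floor, equalled 0.143, 0.127, 0.723, and 1.09 CPM. CPM here is a gene's UMIs per 1000000 UMIs of the members of a library.

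The label held for the genes that define it, which is a description because these genes chose the cells. *F13a1*, the coagulation factor XIII A chain, was at 755 CPM in CBM against 603 in TBM, and 479.6 in CS against 329 in TS. *Ly6c2*, part of the Ly6C antigen and closely similar in sequence to Ly6c1, was at 2503 CPM in CBM against 2070.1 in TBM, and 2155 in CS against 930.3 in TS. *Csf1r*, the receptor for M-CSF, was at 106 CPM in CBM against 52.9 in TBM, and 109.8 in CS against 53.5 in TS, and the chemokine receptor gene *Ccr2* was at 264 CPM in CBM against 263 in TBM, and 138 in CS against 139 in TS. Since the gate sets these levels in part, no difference between libraries is read from them. The lowest sum of the 5 genes in a member was 10.3 UMIs per 10000 in CBM against 10.0 in TBM, and 11.0 in CS against 10.1 in TS. Members with a sum below 15 numbered 39 of 797 in CBM, 78 of 648 in TBM, 10 of 97 in CS, and 34 of 78 in TS, so many TS members lay near the threshold. The median sum was 44.9, 33.8, 33.4, and 16.5. The barcodes just outside, short of this criterion alone, numbered 47, 135, 13, and 84 in that order, with the highest at 9.57, 9.88, 9.60, and 9.90. At the other threshold, 29, 33, 6, and 7 members had exactly 4 UMIs of *Csf1r* and *F13a1*, and 37, 45, 7, and 3 otherwise qualifying barcodes had exactly 3.

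Genes that define other cell types were detected in the members at varied levels. The 5 stem and progenitor genes, *Kit* and *Cd34* among them, summed to 223 CPM in CBM against 124 in TBM, and 294 in CS against 184 in TS, and to 648, 474, 251, and 244 in all cells outside the gate. The 5 B cell genes summed to 47.3, 37.6, 31.6, and 35.6 CPM, against 528, 161, 13.3, and 17.1 outside the gate, so the spleen members were above the other spleen cells. Most of the spleen sum was *Cd79b*, at 29.4 CPM in CS and 33.6 in TS without the cell with most of its UMIs. *Cd79a* was then at 0.488 and 0.368, and 2 of the 5 genes in CS and 3 in TS were at 0. The 6 neutrophil genes *Ltf*, *Camp*, *Ngp*, *Retnlg*, *Ly6g*, and *Cxcr2* summed to 6.16 CPM in CBM against 26.9 in TBM, and 3.13 in CS against 5.45 in TS, with 1, 0, 2, and 5 of the 6 at 0. Barcodes of at most 100 UMIs, which sample RNA free in the droplets, held the same genes at 44.7, 724, 10.7, and 20.5 CPM. The 7 dendritic cell genes *Zbtb46*, *Siglech*, *Xcr1*, *Clec9a*, *Ccr9*, *Dntt*, and *Cd209a* summed to 20.2, 3.31, 29.6, and 0.364 CPM. The hemoglobin genes summed to 360, 304, 63.6, and 30.5 CPM, and the 5 macrophage genes to 2.48, 9.67, 7.95, and 5.09. The T and NK cell list reached 152, 223, 279, and 247 CPM, nearly all of it *Nkg7*, a granule membrane gene that the members themselves expressed. No barcode was a member in more than 1 library, and 2 member barcodes of CBM and 2 of TBM also occurred in another library outside the members.

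Promoters of 3 genes on which the comparisons turn are shown: *S100a9* and *Chil3*, both higher in tumor-bearing mice, and *Irf8*, lower in them. Each line holds the 250 bases before the annotated start in RefSeq (GRCm38.p6), 5′ to 3′ on the gene's strand. The *S100a9* promoter is chr3:90695722-90695971 on the minus strand, that of *Chil3* is chr3:106167565-106167814 on the minus strand, and that of *Irf8* is chr8:120736108-120736357 on the plus strand. Capitals mark matches to TTGCNNAA, a core recognized by C/EBP factors, in *S100a9*, and to TTCNNNGAA, the core of STAT sites, in *Chil3* and *Irf8*.
S100a9: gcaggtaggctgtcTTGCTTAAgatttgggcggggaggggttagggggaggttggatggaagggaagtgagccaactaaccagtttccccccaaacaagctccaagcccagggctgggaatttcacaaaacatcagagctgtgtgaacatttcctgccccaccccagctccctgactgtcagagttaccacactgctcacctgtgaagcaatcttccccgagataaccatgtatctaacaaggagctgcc
Chil3: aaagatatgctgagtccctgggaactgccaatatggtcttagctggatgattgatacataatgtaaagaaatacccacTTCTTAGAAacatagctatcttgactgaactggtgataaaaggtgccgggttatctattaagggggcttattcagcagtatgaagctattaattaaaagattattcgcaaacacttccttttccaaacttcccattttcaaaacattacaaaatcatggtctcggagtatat
Irf8: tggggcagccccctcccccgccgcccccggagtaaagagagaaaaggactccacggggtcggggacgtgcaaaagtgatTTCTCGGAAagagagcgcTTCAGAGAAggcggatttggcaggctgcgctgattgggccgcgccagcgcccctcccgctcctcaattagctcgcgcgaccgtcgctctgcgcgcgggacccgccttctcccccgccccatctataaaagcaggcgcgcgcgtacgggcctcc
*S100a9* held 1 C/EBP match, 236 bases before the start. *Chil3* held 1 STAT match at 172 bases, and *Irf8* held 2, at 171 and 153 bases. Both strands were searched. Over all 32851 promoters of the same length, 9.56% held the C/EBP core and 7.02% the STAT core, so a match describes the letters only. In all, 10 promoters of 9 named genes were searched, and the 3 shown were chosen after the search from those with a match. *Lcn2* and *Slpi*, the latter lower with tumor, also held 1 C/EBP match each, while *S100a8*, *Ms4a3*, *Ifitm1*, *Lyz2*, and a second annotated start of *Irf8* held neither core.

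Between tumor-bearing and control mice, the summed UMIs of the members differed in the same direction in both organs for a group of neutrophil-associated genes. This group held the alarmins *S100a8* and *S100a9*, the chitinase-like gene *Chil3*, the iron-siderophore binding gene *Lcn2*, and the membrane gene *Ms4a3*. All were higher in TBM than in CBM and higher in TS than in CS. *Irf8*, the lysozyme gene *Lyz2*, the protease inhibitor gene *Slpi*, and the fractalkine receptor gene *Cx3cr1* were lower in both organs. For the alarmins, a single TS cell held 91.4% of the *S100a9* and 42.6% of the *S100a8* UMIs of TS members. At equal depth per cell, the intervals of their CS and TS shares overlapped. A gene was compared when its UMIs summed to 50 or more over the 2 libraries, and a difference of 1 or more on the log2 scale was counted as past the fold. In TS over CS, 97 of 8329 genes (1.16%) were higher and 350 (4.2%) lower past the fold. In TBM over CBM, 205 of 11129 (1.84%) were higher and 348 (3.13%) lower. The median log2 difference over all compared genes was -0.04 and -0.03. The higher genes were 21.7% of those past the fold in TS over CS, or 11.7% where the totals left out mitochondrial, ribosomal, and hemoglobin genes, and 37.1% in TBM over CBM.

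*S100a8* (ENSMUSG00000056054, chromosome 3, 90668978 to 90670035 in GRCm38, plus strand) was in CBM at 64.8 CPM (61.4 to 68.4) against 1012 CPM (999 to 1025) for TBM. In CS it was at 84.3 CPM (75.7 to 93.6) against 321 CPM (299.9 to 343) for TS. The log2 difference was 3.96 (3.88 to 4.04) in BM and 1.93 (1.75 to 2.11) in spleen, with no overlap of counting intervals in either organ. Its partner in the calprotectin dimer, *S100a9* (ENSMUSG00000056071, chromosome 3, 90692632 to 90695721, minus strand), was at 8.88 CPM in CBM against 591 in TBM, and 2.17 in CS against 165 in TS. Its log2 difference was 6.06 (5.85 to 6.27) in BM and 6.25 (5.32 to 7.39) in spleen.

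The spleen value of *S100a9* rested on 1 cell. A single TS cell of 28942 UMIs held 416 of the 455 *S100a9* UMIs of all TS members (91.4%), 376 of the 882 *S100a8* UMIs, and 93 of the 231 *Chil3* UMIs. That cell had 15 UMIs of *F13a1*, 5 of *Ccr2*, and 71 of *Ly6c2*, and none of *Csf1r*, *Camp*, *Ltf*, *Ngp*, or *Ly6g*. When the cell with most UMIs of the gene was left out of every library, *S100a9* in TS was 14.3 CPM and its log2 difference from CS 3.56 (2.22 to 5.26). *S100a8* was then 186 CPM in TS, and its difference 1.70 (1.47 to 1.93). At a marker sum of 20 or more, which left 23 TS members, the *S100a8* difference in spleen was 3.17. In BM the differences without such cells were 6.64 (6.37 to 6.92) for *S100a9* and 4.10 (4.02 to 4.19) for *S100a8*.

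Free RNA and cells of another type give the background of these values. In free RNA, *S100a8* was at 379 CPM in CBM against 2405 in TBM, and 67.1 in CS against 197 in TS and *S100a9* at 139.7 CPM in CBM against 2174 in TBM, and 31.2 in CS against 139 in TS. In erythroid cells, which should not express them, *S100a8* was at 7.85 CPM in CBM against 27.3 in TBM, and 0.571 in CS against 3.43 in TS and *S100a9* at 3.25 CPM in CBM against 24.8 in TBM, and 0.633 in CS against 2.18 in TS. The free RNA and the erythroid cells thus moved in the same direction as the members in both organs, and free RNA was above the members for both genes in CBM and TBM. For *S100a9*, free RNA was also above the members in CS. In TS, free RNA was below the members for both genes. It was above them for both genes when the cell with most UMIs of the gene was left out. The neutrophil genes given earlier were also higher in TBM than in CBM members. The part of free RNA and of neutrophil RNA in the result was not tested. To compare shares of cells at equal depth, each cell was thinned to 2000 UMIs, and shallower cells were left out (2 CBM members, and erythroid cells that left 1343 in CS and 2921 in TS). *S100a9* was then detected in 1.26% (0.605% to 2.30%) of CBM members and 16.2% (13.4% to 19.3%) of TBM members, against 1.00% and 9.49% of erythroid cells. In CS it was detected in 0 of 97 members, which allows up to 3.73%, and in TS in 5.13% (1.41% to 12.6%), with intervals that overlapped. The CBM share was thus near background, and the interval of the TBM share overlapped that of erythroid cells (5.15% to 15.7%). For *S100a8* the shares were 6.29% (4.70% to 8.21%) in CBM against 35.0% (31.4% to 38.8%) in TBM, and 11.3% (5.80% to 19.4%) in CS against 12.8% (6.32% to 22.3%) in TS. Erythroid cells gave 1.5%, 9.49%, 0.149%, and 1.20%. The spleen shares of *S100a8* overlapped in their intervals. With all UMIs, a median of 36963 per TBM member and 17210.0 per TBM erythroid cell, the member shares in the same order were 29.4%, 81.3%, 21.6%, and 42.3% for *S100a8* and 4.77%, 59.1%, 4.12%, and 12.8% for *S100a9*. Cells with *S100a8* at 10 or more UMIs per 10000 numbered 12 of 797 (1.51%) in CBM against 132 of 648 (20.4%) in TBM, and 3 of 97 in CS against 6 of 78 in TS. In each library these cells were a minority of the members.

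*Chil3* (ENSMUSG00000040809, chromosome 3, 106147554 to 106167564, minus strand), a secreted chitinase-like protein of myeloid cells also called Ym1, has close paralogs whose reads cannot always be told from its own. It was at 56.5 CPM in CBM against 762 in TBM, and 0.963 in CS against 84.0 in TS. The log2 difference was 3.75 (3.67 to 3.84) in BM and 6.45 (5.07 to 8.33) in spleen, where CS members held 4 UMIs in all. Without the cell with most UMIs the spleen difference was 6.12 (4.54 to 8.41). After thinning, 7.30% of CBM members and 29.8% of TBM members had a UMI, against 0% and 1.46% of erythroid cells. In CS it was detected in 0 of 97 members, which allows up to 3.73%, and in TS in 7.69% (2.88% to 16.0%). With all UMIs the shares were 13.4%, 59.3%, 4.12%, and 29.5% for CBM, TBM, CS, and TS.

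*Lcn2* (ENSMUSG00000026822, chromosome 2, 32384633 to 32388252, minus strand), which encodes the siderophore-binding protein lipocalin 2, was spread over more cells. It was at 17.9 CPM in CBM against 225 in TBM, and 14.9 in CS against 139.6 in TS, with log2 differences of 3.65 (3.50 to 3.81) in BM and 3.23 (2.84 to 3.64) in spleen. The cell with most *Lcn2* UMIs held 35 of the 384 in TS (9.11%), and without the highest cells the spleen difference was 3.19 (2.78 to 3.62). The median member had 0 *Lcn2* UMIs per 10000 in CBM against 1.45 in TBM, and 0 in CS against 1.17 in TS. At equal depth, a UMI was found in 4.65% (3.30% to 6.36%) of CBM against 34.1% (30.5% to 37.9%) of TBM members, and in 2.06% (0.251% to 7.25%) of CS against 24.4% (15.3% to 35.4%) of TS members, and in at most 0.730% of erythroid cells. With all UMIs the shares were 26.6%, 88.6%, 36.1%, and 80.8% in the same order. The share was therefore higher in the tumor-bearing library of each organ, with intervals that did not overlap. Free RNA held *Lcn2* at 12.5 CPM in CBM against 180.4 in TBM, and 2.96 in CS against 26.1 in TS.

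**Figure D1:**
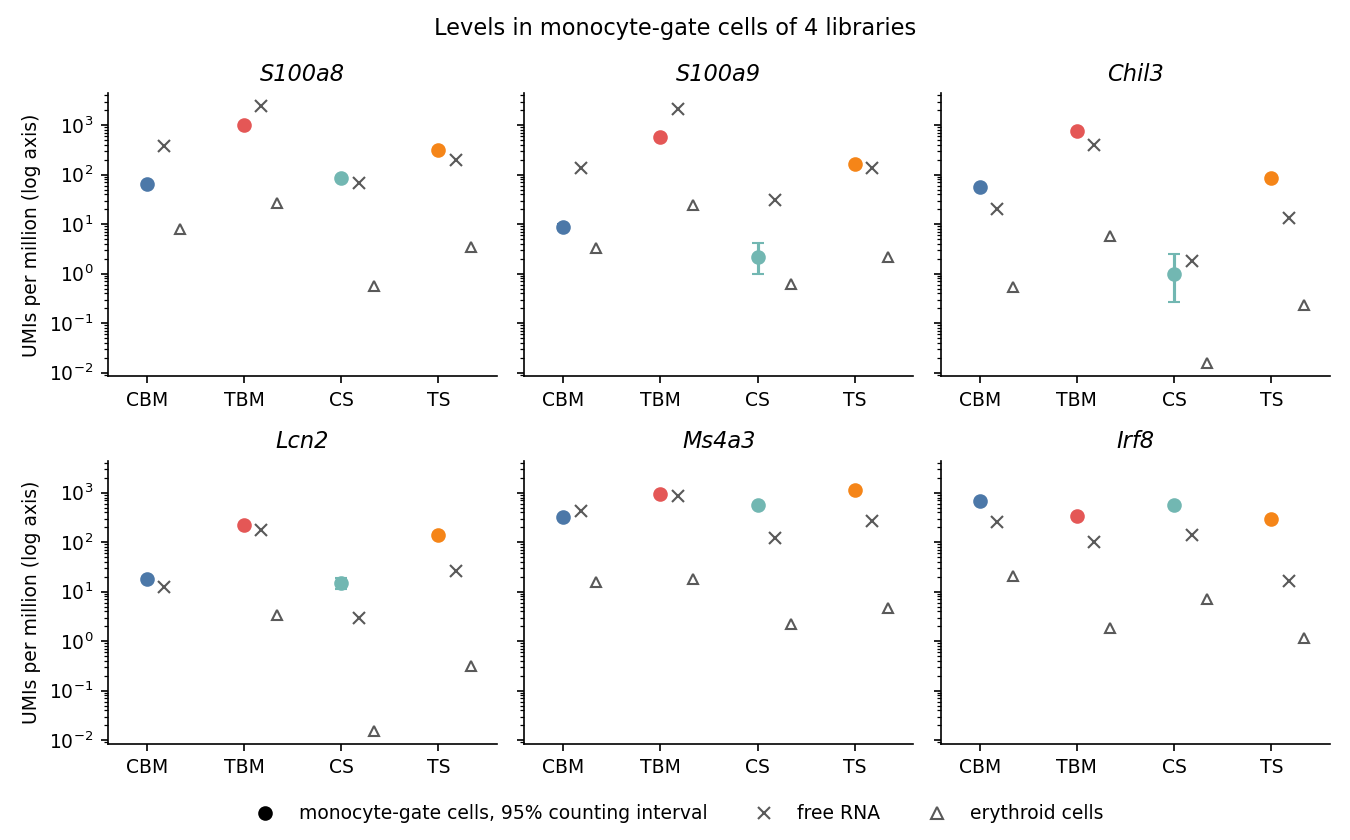
Levels of 6 genes in the 4 libraries, in CPM on a log axis. Points are the members with 95% counting intervals, crosses are free RNA, and triangles are erythroid cells (Lcn2 was at 0 in erythroid cells of CBM and is not drawn there). S100a8 was at 1012 CPM in members of TBM and 64.8 in those of CBM, while Irf8 was lower in both tumor-bearing libraries.

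*Ms4a3* (ENSMUSG00000024681, chromosome 19, 11629496 to 11640851, minus strand), a membrane gene of granulocyte-monocyte progenitors and their progeny, was high in all libraries and higher with tumor. It was at 317 CPM in CBM against 932 in TBM, and 569 in CS against 1149 in TS, with log2 differences of 1.56 (1.52 to 1.60) in BM and 1.01 (0.94 to 1.09) in spleen. The median member held 1.44 *Ms4a3* UMIs per 10000 in CBM against 7.54 in TBM, and 5.40 in CS against 11.0 in TS. *Ms4a3* was thus higher in the typical member of each tumor-bearing library. At equal depth, a UMI was found in 32.7% of CBM against 66.4% of TBM members, and in 57.7% of CS against 85.9% of TS members. With all UMIs they were 71.3%, 94.4%, 82.5%, and 98.7%. The thinned shares of erythroid cells were 3.50%, 9.49%, 1.04%, and 1.30%.

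Other genes past the fold in both organs included the stress and metal-binding gene *Mt1*, at 159.9 CPM in CBM against 380.4 in TBM, and 199 in CS against 433 in TS, and *Gclm*, a subunit of the enzyme that starts glutathione synthesis, at 62.2 CPM in CBM against 171 in TBM, and 78.8 in CS against 189 in TS. The interferon-inducible membrane gene *Ifitm1* was at 82.2 CPM in CBM against 266 in TBM, and 143 in CS against 677 in TS, with log2 differences of 1.70 (1.62 to 1.77) in BM and 2.24 (2.11 to 2.38) in spleen. *Ifitm1* was also high in erythroid cells (485 CPM in CBM against 189.7 in TBM, and 135 in CS against 36.7 in TS) and free RNA (404 CPM in CBM against 700.1 in TBM, and 489 in CS against 324 in TS), and erythroid cells moved the other way, being lower in both tumor-bearing libraries. Free RNA was higher in TBM than in CBM, as the members were, and lower in TS than in CS. It was above the members in CBM, TBM, and CS. *Wfdc21*, a small secreted whey-acidic-protein gene, was at 7.59 CPM in CBM against 140.1 in TBM, and 16.6 in CS against 57.1 in TS. *Pim1*, a kinase gene induced by STAT signaling, differed by 1.5 (1.42 to 1.58) in BM and 0.94 (0.79 to 1.10) in spleen, the latter just short of the fold. The same held for the lactate dehydrogenase gene *Ldha* the other way, with 0.95 (0.91 to 0.98) in BM and 1.10 (1.01 to 1.19) in spleen. The suppressor of cytokine signaling *Socs3* was at 1.19 CPM in CBM against 8.57 in TBM, and 5.06 in CS against 10.5 in TS, a low level in every library.

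*Srm*, *Lyar*, and *Ddx39* were among the 8 highest genes of TS over CS at 100 CPM or more. *Srm*, which makes spermidine, differed by 1.12 (0.98 to 1.26), *Lyar*, a nucleolar factor, by 1.21 (1.08 to 1.35), and *Ddx39*, an RNA helicase gene, by 1.33 (1.16 to 1.51). In BM the same genes differed by 0.60 (0.54 to 0.66), 0.72 (0.66 to 0.78), and 0.80 (0.73 to 0.88), in the same direction and short of the fold. In BM the haptoglobin gene *Hp* (1.16 (1.11 to 1.20)) and the proteoglycan gene *Srgn* (1.10 (1.07 to 1.13)) were past the fold, whereas their spleen differences were 0.52 (0.41 to 0.64) and 0.26 (0.20 to 0.32). Whether the organs differed in these genes was not tested.

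The list of 14 neutrophil-like monocyte genes summarizes this group. Its median log2 difference was 2.95 in BM, with 8 of 13 compared genes higher past the fold and none lower, and 1.78 in spleen, with 5 of 9 higher and none lower. All genes compared had medians of -0.03 and -0.04, and 1.84% and 1.16% of them were higher past the fold. The list was chosen with earlier results of these data known, and its counts are a description. In all cells outside the gate the list's median was 3.27 in BM and 1.99 in spleen, so the direction was not limited to the members. In cells outside the gate rich in *Mpo*, *Elane*, *Prtn3*, and *Ctsg*, it was 2.21 in BM and 0.47 in spleen. These cells numbered 586 in CBM against 1668 in TBM, and 125 in CS against 564 in TS. The mix of cells outside the gate thus differed between libraries, and its part in the medians was not tested. Without the highest cell of each gene the members' medians were 3.34 and 1.70. The secondary granule genes in the list were low: *Camp* was at 0.334 CPM in CBM against 2.59 in TBM, and 0.241 in CS against 0 in TS, *Ngp* at 0.0955 CPM in CBM against 3.65 in TBM, and 0.241 in CS against 0 in TS, and *Ltf* at 0.143 CPM in CBM against 0.509 in TBM, and 0.241 in CS against 0 in TS. *Camp* and *Ngp* are among the 8 counted in BM, but with all UMIs they were detected in 8.02% and 5.25% of TBM members against 7.30% and 4.38% of TBM erythroid cells, which is near background. In TS these 3 genes were at 0, under the floor of 3 UMIs (1.09 CPM), while *Lcn2*, *S100a8*, and *Chil3* were above it.

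The azurophil granule genes differed less. Myeloperoxidase, *Mpo*, was at 3303 CPM in CBM against 2836 in TBM, and 4276 in CS against 2816 in TS, and its log2 differences were -0.22 (-0.24 to -0.20) in BM and -0.60 (-0.64 to -0.56) in spleen. *Prtn3* (proteinase 3) differed by 0.57 (0.56 to 0.58) and 0.37 (0.35 to 0.40), *Ctsg* (cathepsin G) by 0.65 (0.63 to 0.67) and 0.20 (0.15 to 0.24), and *Elane* (neutrophil elastase) by -0.07 (-0.09 to -0.05) and -0.94 (-0.98 to -0.89). None of the 4 was past the fold. Of the 12 genes of the azurophil list, 2 were higher past the fold in BM (*Ms4a3* and *Srgn*) and 1 in spleen (*Ms4a3*), where 1.84% and 1.16% of all compared genes were, and none was lower. Among granule-rich cells, those rich in *Mpo*, *Elane*, *Prtn3*, and *Ctsg*, the spleen difference of *Ms4a3* was 0.93 (0.85 to 1.01), short of the fold.

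Among transcription factors, *Irf8* (ENSMUSG00000041515, chromosome 8, 120736358 to 120756694, plus strand), which directs progenitors to the monocyte fate, stood out. It was at 694 CPM in CBM against 342 in TBM, and 570.1 in CS against 293 in TS. Its log2 difference was -1.02 (-1.06 to -0.98) in BM and -0.96 (-1.08 to -0.85) in spleen, past the fold in BM and just short of it in spleen. The median member held 6.46 *Irf8* UMIs per 10000 in CBM against 3.44 in TBM, and 5.13 in CS against 2.67 in TS. At equal depth, an *Irf8* UMI was found in 70.3% (67.0% to 73.5%) of CBM and 43.5% (39.7% to 47.4%) of TBM members, and in 54.6% (44.2% to 64.8%) of CS and 37.2% (26.5% to 48.9%) of TS members, and in at most 3.0% of erythroid cells. With all UMIs the member shares were 98.2%, 83.0%, 93.8%, and 84.6% in the same order. *Zeb2*, a zinc finger factor of monocyte development, was also lower, with differences of -0.76 (-0.81 to -0.72) and -0.85 (-0.98 to -0.72), and *Klf4* with -0.65 (-0.71 to -0.60) and -0.49 (-0.73 to -0.26). The myeloid factors *Spi1* (PU.1) and *Cebpb* were nearly level: *Spi1* was at 231 CPM in CBM against 235 in TBM, and 224 in CS against 242 in TS, and *Cebpb* at 288 CPM in CBM against 321 in TBM, and 300.1 in CS against 291 in TS. *Cebpe*, a factor of late granulocyte development, differed by 0.90 (0.71 to 1.08) in BM and -0.15 (-0.59 to 0.28) in spleen. Over the list of 20 factors the median was -0.22 in BM and -0.47 in spleen, and the genes lower past the fold were *Irf8* in BM (1 of 19) and *Id2* in spleen (1 of 18), where 3.13% and 4.2% of all compared genes were.

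**Figure D2:**
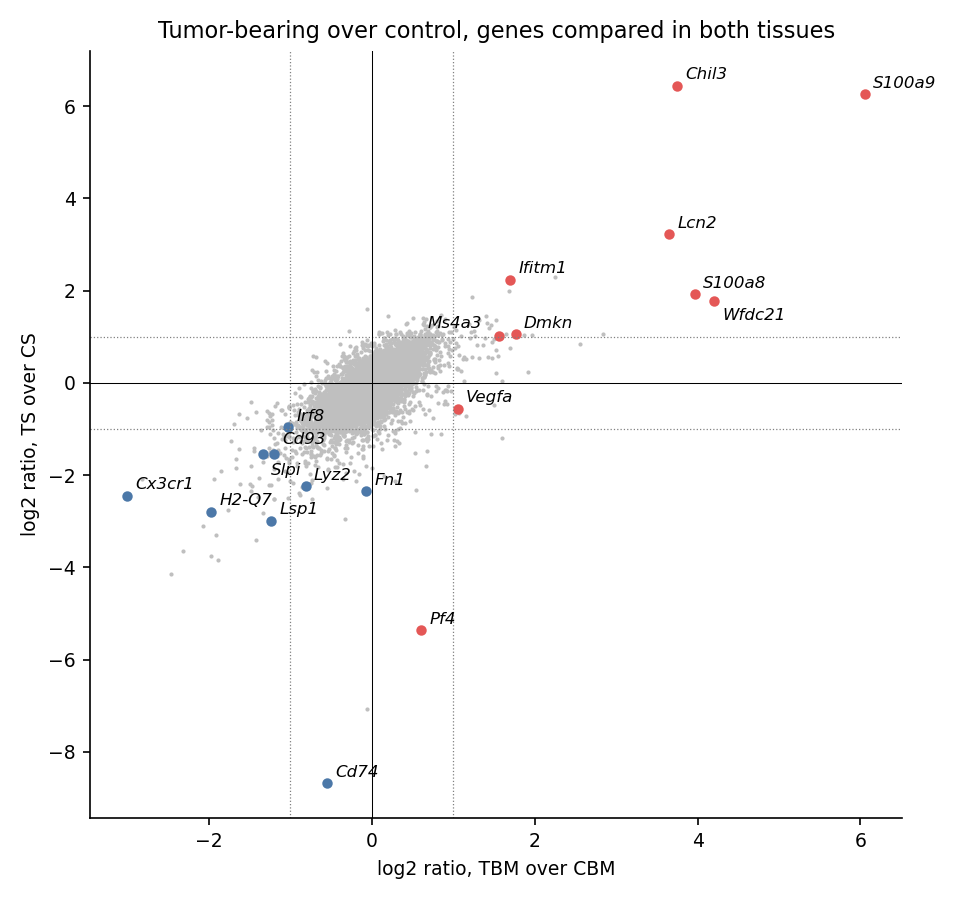
Log2 difference of tumor-bearing over control members in BM (x axis) and spleen (y axis). Each grey point is a gene compared in both organs, dotted lines mark a difference of 1, and labelled genes are red when higher in TBM and blue when lower. S100a8, S100a9, Chil3, Lcn2, Ifitm1, and Ms4a3 were higher in both organs, and Cx3cr1, Lyz2, and Slpi were lower in both. In spleen, a single TS cell held 91.4% of the S100a9 UMIs and 42.6% of the S100a8 UMIs of TS members.

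Several of the genes named by size of difference or from the lists were lower with tumor in both organs. *Lyz2* (ENSMUSG00000069516, chromosome 10, 117277331 to 117282321, minus strand), one of a pair of similar lysozyme genes, was at 2112 CPM in CBM against 1203 in TBM, and 657 in CS against 140.0 in TS, with log2 differences of -0.81 (-0.83 to -0.79) in BM and -2.23 (-2.39 to -2.08) in spleen. *Slpi*, an inhibitor of elastase, was at 442 CPM in CBM against 175 in TBM, and 198 in CS against 67.6 in TS and differed by -1.34 (-1.39 to -1.28) and -1.55 (-1.79 to -1.32). *Cx3cr1* was at 68.3 CPM in CBM against 8.53 in TBM, and 59.3 in CS against 10.9 in TS and differed by -3.00 (-3.22 to -2.79) and -2.44 (-3.04 to -1.89). *Cd93*, a surface glycoprotein of early myeloid cells, differed by -1.20 (-1.28 to -1.12) and -1.55 (-1.80 to -1.31), and the LIM-domain gene *Crip1* by -1.15 (-1.18 to -1.12) and -2.09 (-2.31 to -1.87). Over all members, each of these was thus past the fold in both organs, apart from *Lyz2* in BM. *Cd52* differed by -1.42 (-1.56 to -1.27) in spleen, and *Lsp1*, a leukocyte actin-binding gene, by -1.24 (-1.32 to -1.16) in BM. Among granule-rich members of BM, *Crip1* differed by -0.73 (-0.77 to -0.69) and *Lsp1* by -0.70 (-0.79 to -0.60). In the other BM members they differed by -0.58 (-0.66 to -0.51) and -0.70 (-0.87 to -0.53). Neither was thus past the fold within either range of BM members. The classical monocyte list did not share this direction in BM. Its median was 0.06 there, with 4 of 16 genes higher past the fold (*Vcan*, *Hp*, *Chil3*, and *Fcgr1*) and 1 of 16 lower (*Clec4a1*), and -0.33 in spleen, with 1 of 12 higher (*Chil3*) and 3 of 12 lower (*Fn1*, *Ifitm6*, and *Lyz2*). Over all compared genes, 1.84% were higher and 3.13% lower in BM, and 1.16% and 4.2% in spleen.

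MHC class I genes were lower as a group, with few past the fold. The median of the 15 genes was -0.56 in BM, with 3 lower past the fold, and -0.85 in spleen, with 5 lower, where 3.13% and 4.2% of all compared genes were. *B2m*, the invariant light chain, was at 1008 CPM in CBM against 706 in TBM, and 1223 in CS against 659.7 in TS, and the classical heavy chain gene *H2-K1* differed by -0.57 (-0.60 to -0.53) and -0.64 (-0.74 to -0.55). *H2-Q7*, a nonclassical gene whose reads can be shared with the near-identical *H2-Q6*, was at 49.5 CPM in CBM against 12.6 in TBM, and 90.6 in CS against 13.1 in TS. In the cells outside the gate the list medians were -0.49 in BM and -0.84 in spleen, and *H2-Q7* in free RNA was at 148 CPM in CBM against 58.8 in TBM, and 290.4 in CS against 89.8 in TS. Interferon-stimulated genes had medians of -0.43 and -0.55, and of these *Ifi27l2a* differed by -2.82 (-3.05 to -2.61) in BM and -2.09 (-2.95 to -1.32) in spleen.

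The dendritic-like monocyte list had medians below 0 in both organs. The median was -0.44 in BM, with 2 of 12 lower past the fold, and -1.23 in spleen, with 7 of 11 lower, where 3.13% and 4.2% of all compared genes were. *Cd209a*, the lectin gene that marks this form, was at 6.45 CPM in CBM against 0.594 in TBM, and 14.2 in CS against 0 in TS, and its BM difference was -3.44 (-4.35 to -2.64). In spleen much of the antigen-presentation signal came from 1 cell of CS, of 67459 UMIs, which held 541 of the 616 *Cd74* UMIs (87.8%) and 176 of the 204 *H2-Aa* UMIs (86.3%) of the CS members. Without the highest cell, *Cd74* in CS was 18.4 CPM, and *H2-Aa* 6.86 CPM. With the highest cell left out for each gene, the median of the dendritic-like monocyte genes was -1.30 in spleen. After thinning, 1.03% of CS members had an *H2-Aa* UMI, below the 2.53% of erythroid cells, so this share was at background. The sum of the dendritic cell genes listed earlier was also lower in TBM and TS than in their controls. That sum includes *Cd209a*, so it is not a separate observation. The part of dendritic cells in the result was not tested.

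Receptors for growth factors and cytokines included genes on both sides of the fold. The medians were -0.06 in BM and -0.44 in spleen, with 1 of 20 and 1 of 14 genes higher past the fold and 1 of 20 and 2 of 14 lower, where 1.84% and 1.16% of all compared genes were higher and 3.13% and 4.2% lower. The IL-1 decoy receptor gene *Il1r2* was higher in BM at a low level, 6.70 CPM in TBM against 0.0955 in CBM, the latter 2 UMIs in all, a difference of 6.13 (4.26 to 9.19). The IL-4 receptor gene *Il4ra* was higher in spleen, by 1.31 (0.82 to 1.82), and the IL-10 receptor gene *Il10ra* was lower in BM, with a difference of -1.02 (-1.31 to -0.73), and below the UMI minimum in spleen. *Il6st*, which encodes the shared signaling chain of IL-6, LIF, and oncostatin M receptors, differed by -0.82 (-0.93 to -0.70) and -1.17 (-1.58 to -0.78). Chemokine receptor and adhesion genes had medians of -0.36 and -0.50, and pattern and Fc receptors of 0.08 and -0.21. Of the latter, the lectin gene *Clec4e* differed by 1.70 (1.45 to 1.95) in BM and 0.75 (0.26 to 1.24) in spleen.

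Genes linked to suppression of T cells by myeloid cells were mixed. The list includes *S100a8* and *S100a9*, and its medians were 0.62 in BM and 0.10 in spleen, with 6 of 19 and 3 of 16 higher past the fold, where 1.84% and 1.16% of all compared genes were. None was lower past the fold in BM, and *Cd84* was in spleen. The collagenase gene *Mmp8* was at 9.31 CPM in CBM against 29.9 in TBM, and 3.37 in CS against 6.91 in TS. Arginase 1, *Arg1*, was at 0.812 CPM in CBM against 0.636 in TBM, and 0.482 in CS against 0.727 in TS, and nitric oxide synthase 2, *Nos2*, was at 0.0478 CPM in CBM against 0.0848 in TBM, and 0 in CS against 0 in TS, so both were below 1 CPM in every library. Cytokine and chemokine genes had medians of -0.11 and -0.50. *Tnf* was at 4.78 CPM in CBM against 7.76 in TBM, and 10.4 in CS against 6.91 in TS, with differences of 0.70 (0.34 to 1.07) in BM and -0.58 (-1.45 to 0.23) in spleen.

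Cell cycle, metabolic, and lysosome lists had medians nearer to 0 than the neutrophil-like list. The S-phase list had medians of -0.03 in BM and 0.16 in spleen, and the G2 and mitosis list 0.19 and 0.19. After thinning, *Mki67*, a gene of dividing cells, was detected in 39.7% (36.3% to 43.2%) of CBM against 42.6% (38.7% to 46.5%) of TBM members, and in 41.2% (31.3% to 51.7%) of CS against 30.8% (20.8% to 42.2%) of TS members, with overlapping intervals within each organ, and with all UMIs in 87.5%, 94.9%, 85.6%, and 96.2%. Glycolysis and hypoxia genes had medians of 0.39 and 0.29. *Vegfa* was higher past the fold in BM (1 of 20) and *Ldha* in spleen (1 of 19), where 1.84% and 1.16% of all compared genes were. Lysosome genes had medians of -0.23 and -0.51, with 5 of 15 lower past the fold in spleen, where 4.2% of all compared genes were, among them *Apoe*, which was also lower in free RNA (395 CPM in CBM against 219.7 in TBM, and 718 in CS against 236 in TS). Nonclassical monocyte genes had medians of -0.29 and -0.40.

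Over the 8325 genes compared in both organs, 28 were higher past the fold in both, which is 43.1% of the 65 such genes in BM and 28.9% of the 97 in spleen. Another 74 were lower in both, 71.2% of 104 in BM and 21.3% of 347 in spleen. Only 1 gene, *Zfp36l1*, was past the fold in opposite directions. The comparisons share no library, but the sources used here do not say whether spleen and BM came from the same mice.

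The members spanned a range from granule-rich to granule-poor cells, and this range was filled differently in each library. Cells were called granule-rich when *Mpo*, *Elane*, *Prtn3*, and *Ctsg* summed to 20 or more UMIs per 10000. After thinning, 81.9% (79.0% to 84.5%) of members were granule-rich in CBM against 94.8% (92.7% to 96.3%) in TBM, and 86.6% (78.2% to 92.7%) in CS against 98.7% (93.1% to 100.0%) in TS. With all UMIs, the granule-poor members were 147 in CBM against 34 in TBM, and 12 in CS against 1 in TS, and 104, 63, 5, and 0 members lay between 10 and 30 UMIs per 10000. The share of granule-rich cells was thus higher in the tumor-bearing library of each organ. With a threshold of 10 in place of 20, the intervals of the spleen libraries overlapped, at 91.8% in CS and 98.7% in TS. The class is a range of a score and not a cell type. The CD45+ cells had been sorted for c-Kit after depletion of lineage-positive cells. In CBM and TBM, granule-poor members held less *Kit* than granule-rich ones and more *Itgam*, both genes of the sort and lineage antibodies. *Itgam* was at 109 against 19.4 CPM in CBM, and at 197 against 21.8 in TBM. Granule-poor members also held less *Cd34* but more of the division gene *Mki67* and of *Flt3*. *Mki67* was at 591 against 317 CPM in CBM, and at 643 against 352 in TBM. *Flt3* was at 52.7 against 17.5 CPM in CBM, and at 74.8 against 24.8 in TBM. The part of sorting and depletion in these shares, and in the differences among granule-poor members, was not tested.

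**Figure D3:**
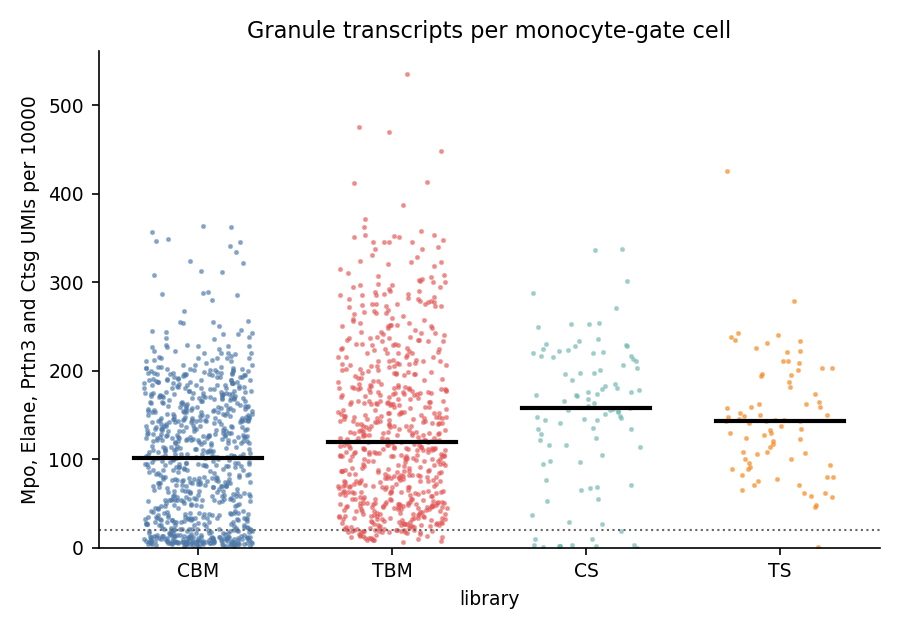
Summed UMIs per 10000 of Mpo, Elane, Prtn3, and Ctsg in each member, by library. Each point is a cell, the bar is the median (102 in CBM against 120 in TBM, 158 in CS against 143 in TS), and the dotted line is the threshold of 20; TS had 1 member below it.

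Within granule-rich members the neutrophil-associated genes still differed. *S100a8* differed by 3.87 (3.78 to 3.96) in BM and 1.84 (1.66 to 2.02) in spleen, *Lcn2* by 3.52 (3.37 to 3.69) and 3.19 (2.79 to 3.61), and *Chil3* by 4.76 (4.63 to 4.90) and 6.53 (4.96 to 8.82). *Irf8* differed by -0.97 (-1.01 to -0.93) and -0.98 (-1.10 to -0.87), and *Slpi* by -1.40 (-1.46 to -1.35) and -1.58 (-1.82 to -1.35), close to the values over all members. The BM difference of *Irf8*, past the fold over all members, was just short of it in this range. *Lyz2* differed by -0.40 (-0.43 to -0.37) and -1.38 (-1.56 to -1.20), smaller than over all members. For some genes the spleen difference was smaller in this range. Fibronectin, *Fn1* (ENSMUSG00000026193, chromosome 1, 71585520 to 71653200, minus strand), differed by -2.34 (-3.04 to -1.71) over all members and by 0.21 (-0.97 to 1.36) among granule-rich ones. The calcium-binding gene *S100a6* differed by -2.27 (-2.68 to -1.88) and -0.51 (-1.06 to 0.02), and the galectin gene *Lgals3* by -1.63 (-1.95 to -1.33) and 0.15 (-0.26 to 0.57). Without the 12 granule-poor cells of CS and the 1 of TS, the intervals of these 3 spleen differences thus included 0.

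In granule-poor cells of BM, 34 in TBM and 147 in CBM, the contrast in alarmins was larger. *S100a8* was at 5335 CPM in TBM and 96.3 in CBM, and *S100a9* at 4650.3 and 5.85. The log2 differences were 5.79 (5.59 to 6.00) and 9.63 (8.86 to 10.55), against 3.87 (3.78 to 3.96) and 5.70 (5.48 to 5.92) among granule-rich cells. *Chil3* went the other way, with 3.58 (3.46 to 3.71) against 4.76 (4.63 to 4.90) among granule-rich cells. *Vcan*, a proteoglycan gene of classical monocytes, was at 295 CPM in granule-poor cells of TBM and 4.50 in those of CBM. *Irf8* differed by -0.97 (-1.14 to -0.80) and *Lyz2* by -0.22 (-0.26 to -0.17) in these cells, both short of the fold.

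**Figure D4:**
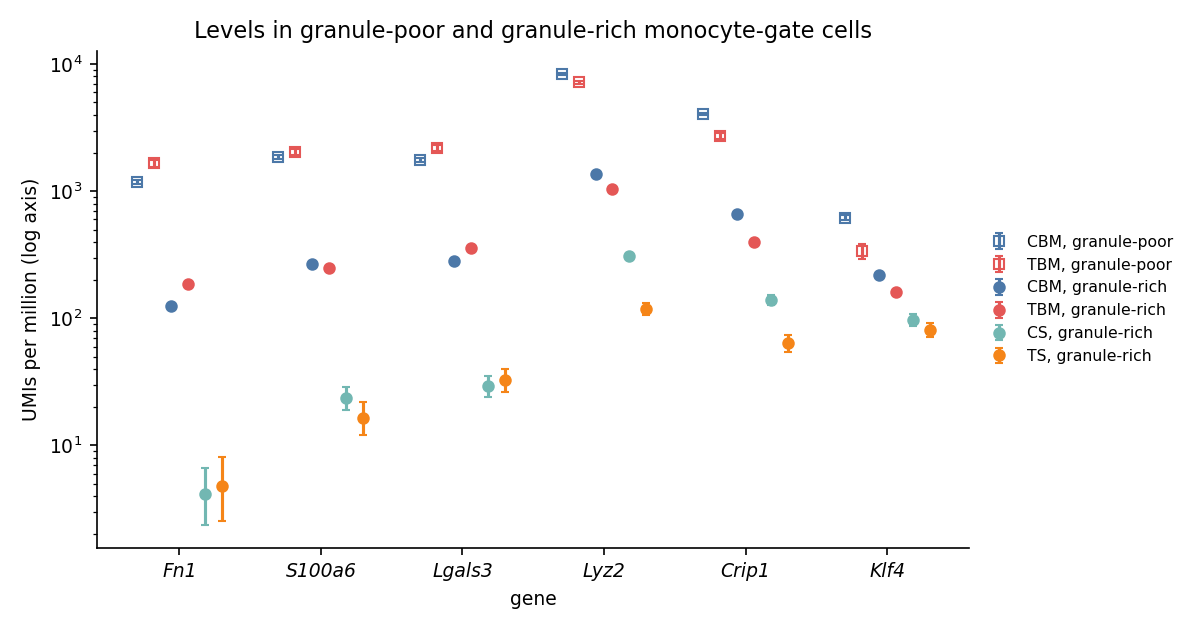
Levels of 6 genes of monocyte maturation in granule-poor members (open squares, CBM and TBM) and granule-rich members (filled, all 4 libraries), in CPM on a log axis with 95% counting intervals. Fn1 was at 1191 CPM in granule-poor and 124 in granule-rich members of CBM, and at 4.12 in granule-rich members of CS.

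Spleen members differed from BM members in some named genes of monocyte maturation and of the early response, with and without tumor. In CS over CBM, 179 of 10449 genes (1.71%) were higher and 213 (2.04%) lower past the fold, with an all-gene median of 0.03. In TS over TBM, 96 of 10322 (0.93%) were higher and 523 (5.07%) lower, with a median of 0.00. The balance of higher and lower genes depended on the setting. The higher genes were 45.7% of those past the fold in CS over CBM and 15.5% in TS over TBM, but 73.9% and 65.9% without the minimum of 50 UMIs, and 29.4% and 7.45% without the cell with most UMIs of each gene. These comparisons share no library with each other, and over 10127 genes 35 were higher in both and 116 lower in both. The 35 were 25.2% of 139 and 40.2% of 87, the 116 were 64.8% of 179 and 24.0% of 483, and 11 genes were past the fold in opposite directions.

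*Fn1*, *S100a6*, *S100a4*, *Lgals3*, *Crip1*, *Lyz2*, and *Klf4* were lower in spleen members with and without tumor. *Fn1*, an adhesion protein of the matrix, was at 238 CPM in CBM against 227 in TBM, and 42.4 in CS against 8.36 in TS, with log2 differences of -2.49 (-2.71 to -2.27) in control and -4.76 (-5.42 to -4.17) in tumor-bearing mice. *S100a6* was at 435 CPM in CBM against 297 in TBM, and 109 in CS against 22.5 in TS, and its relative *S100a4* differed by -1.52 (-1.66 to -1.39) and -3.31 (-3.72 to -2.92). *Lgals3* was at 439.7 CPM in CBM against 408 in TBM, and 119 in CS against 38.5 in TS. *Crip1* differed by -1.77 (-1.86 to -1.69) and -2.71 (-2.92 to -2.51), *Lyz2* by -1.68 (-1.74 to -1.63) and -3.10 (-3.25 to -2.96), and *Klf4* by -1.22 (-1.36 to -1.08) and -1.06 (-1.26 to -0.86). Granule-rich members alone gave differences at least as large for *Fn1*, -4.92 (-5.73 to -4.21) and -5.30 (-6.21 to -4.52), and for *Lgals3*, -3.27 (-3.55 to -3.00) and -3.46 (-3.78 to -3.16). For *Klf4* they gave -1.18 (-1.34 to -1.03) and -1.0 (-1.21 to -0.81). The classical monocyte list had medians of -0.37 and -1.31, with 5 of 15 and 10 of 16 genes lower past the fold, where 2.04% and 5.07% of all compared genes were. In all cells outside the gate the medians of this list were -2.16 and -2.29, and in granule-rich cells outside the gate -0.17 and -0.47. The chemokine receptor and adhesion list had medians of -0.20 and -0.38, with 1 of 15 and 0 of 15 higher past the fold, where 1.71% and 0.93% of all compared genes were, and 2 of 15 and 3 of 15 lower.

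*S100a9* and *Chil3* were lower in TS than in TBM, with differences of -1.84 (-1.97 to -1.70) and -3.18 (-3.37 to -2.99), although both were higher in TS than in CS. Without the cell with most UMIs of the gene in each library, which for *S100a9* held most of the TS UMIs, the differences were -5.23 (-5.72 to -4.78) and -3.88 (-4.14 to -3.64). The neutrophil-like list had a median of -1.56 in TS over TBM, with 10 of 12 lower past the fold and none higher, where 5.07% of all compared genes were lower. The 10 include *Camp* and *Ngp*, which had no UMI in TS members and were near background in TBM members. In CS over CBM it was -0.26, with 1 of 10 higher and 3 of 10 lower, where 1.71% and 2.04% of all compared genes were. TBM was thus the library with the highest levels of *S100a8*, *S100a9*, *Chil3*, and *Lcn2*. In all cells outside the gate the neutrophil-like list had medians of -4.09 in TS over TBM and -3.01 in CS over CBM. In granule-rich cells outside the gate they were -1.12 and -0.10.

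Several immediate-early genes and NF-kB targets were higher in spleen members, while most genes of both lists stayed short of the fold. The orphan nuclear receptor gene *Nr4a2* was at 32.4 CPM in CBM against 43.7 in TBM, and 198 in CS against 127 in TS, with log2 differences of 2.61 (2.46 to 2.76) in control and 1.54 (1.36 to 1.72) in tumor-bearing mice. Erythroid cells moved the same way, with *Nr4a2* at 105 CPM in CBM against 53.9 in TBM, and 259 in CS against 117 in TS. After thinning, it was detected in 6.16% of CBM against 8.80% of TBM members, in 24.7% of CS against 21.8% of TS members, and in 20.5%, 11.7%, 39.2%, and 21.5% of erythroid cells, so it was not particular to the members. The AP-1 gene *Fosb* was at 118 CPM in CBM against 91.4 in TBM, and 347 in CS against 185 in TS, and *Junb* at 154 CPM in CBM against 181 in TBM, and 418 in CS against 284 in TS. The prostaglandin synthase gene *Ptgs2* was at 7.16 CPM in CBM against 7.93 in TBM, and 50.8 in CS against 50.2 in TS, and the neutrophil-attracting chemokine gene *Cxcl2* at 0.478 CPM in CBM against 2.80 in TBM, and 24.8 in CS against 44.7 in TS. *Cd14*, the lipopolysaccharide co-receptor, differed by 2.24 (2.04 to 2.44) and 1.74 (1.52 to 1.95), and oncostatin M, *Osm*, by 1.53 (1.29 to 1.77) and 1.34 (1.08 to 1.59). All of these were past the fold in both comparisons except *Junb*, whose difference in tumor-bearing mice was 0.65 (0.54 to 0.76). *Fosb* was at 1.02 (0.88 to 1.16) there, and at 0.99 (0.84 to 1.13) without the cell with most of its UMIs in each library.

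The NF-kB list had medians of 0.73 in CS over CBM and 0.30 in TS over TBM, with 7 of 21 and 4 of 21 genes higher past the fold and none lower, where 1.71% and 0.93% of all compared genes were higher, and 4 and 7 of the 21 were below 0. In all cells outside the gate the medians of the NF-kB list were 0.04 and -0.09, and in granule-rich cells outside the gate 0.61 and 0.36. The feedback inhibitor *Nfkbia* differed by 1.05 (0.91 to 1.20) and 0.78 (0.60 to 0.95), and *Tnfaip3* by 1.33 (0.89 to 1.76) and 2.03 (1.38 to 2.66). The list of dissociation and immediate-early genes, which respond to tissue digestion, had medians of 0.95 and 0.49, with 9 of 21 and 3 of 21 higher past the fold, against the same shares of all compared genes. In all cells outside the gate its medians were 0.20 and -0.22, and in granule-rich cells outside the gate 0.78 and 0.40. Both tissues were digested, the spleen was minced as well, and the part of dissociation in these values was not tested. Between tumor-bearing and control libraries the NF-kB list had medians of 0.02 in BM and -0.18 in spleen, and the immediate-early list of 0.08 and -0.40. *Il1b* was at 15.9 CPM in CBM against 9.88 in TBM, and 28.4 in CS against 41.8 in TS, and *Tnf* differed between organs by 1.12 (0.57 to 1.65) in control and -0.17 (-0.93 to 0.52) in tumor-bearing mice. *Mt2*, which was higher in spleen by 3.33 (2.75 to 3.94) and 1.83 (1.15 to 2.47), was also higher there in free RNA (10.3 CPM in CBM against 16.2 in TBM, and 307 in CS against 447 in TS), and the part of free RNA was not tested.

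**Figure D5:**
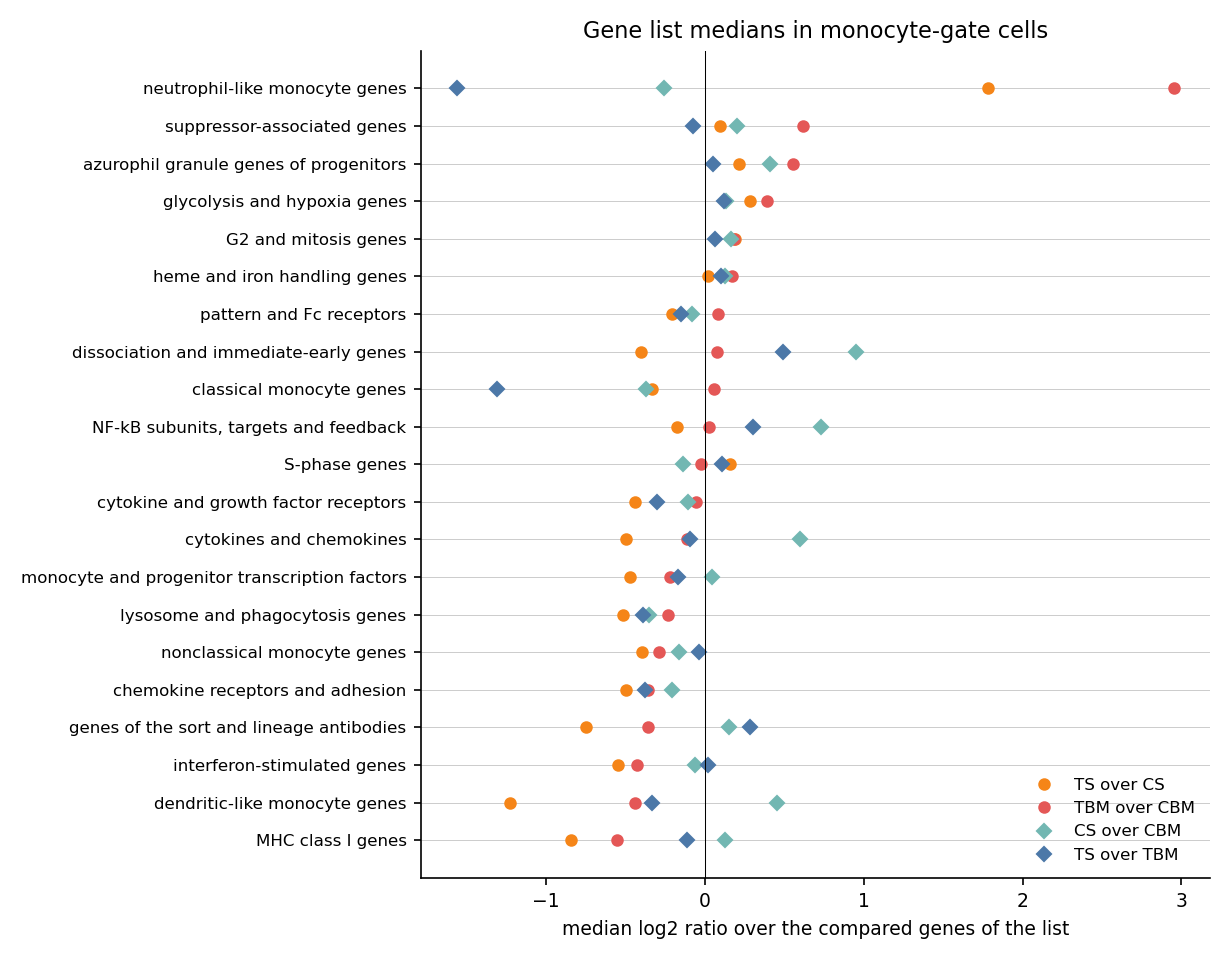
Median log2 difference of 21 gene lists in the members, for tumor-bearing over control in each organ and for spleen over BM in control and tumor-bearing mice. The neutrophil-like list was at 2.95 for TBM over CBM and 1.78 for TS over CS, and the immediate-early list at 0.95 between the control and 0.49 between the tumor-bearing organs.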

How the data were processed

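Droplet single-cell RNA-seq of 4 sorted and pooled libraries was analysed. The deposited values are raw UMI counts, unfiltered for cells, made with Cell Ranger 4.0 on mm10 per the submitters' processing notes. Whole-library totals were 101811035 (CBM), 135207987 (TBM), 145301019 (CS), and 176094297 (TS) UMIs over 32285 genes, and these limit the precision, with 97 and 78 members in the spleen libraries.

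Members were chosen by the marker rule in the report. The members, the 21 gene lists, and the 12 marker lists were chosen with earlier results of these data known. Doublets were not called, and the gate does not exclude them. Leaving out members with markers of another class or more than 3 times the median UMIs of their library was tried instead. This left 8 CS and 2 TS members, so it was not run for comparisons with a spleen library. With *Nkg7* not counted among the markers it left 18 CS and 27 TS members, and TS over TBM was run. The 8 genes of the rule were left out of all comparisons, and the levels given for some of them are descriptions. UMIs were summed over the members of a library, and ratios of CPM were given with exact conditional 95% intervals and levels with exact Poisson intervals; shares have Clopper-Pearson intervals. With 1 library per group no test between groups exists. Genes with at least 50 UMIs over the 2 libraries were compared. The 8 highest and 8 lowest genes of each comparison among those at 100 CPM or more on average were named (without mitochondrial, ribosomal, hemoglobin, immunoglobulin, and unnamed gene models), together with genes of the lists; *Zfp36l1* was chosen after its values were seen. Free RNA was the sum of barcodes with at most 100 UMIs. Gene positions are from GENCODE M21 (GRCm38). The calculation was checked on simulated data. Python 3.11.15, numpy 2.4.6, scipy 1.17.1, pandas 2.3.3, matplotlib 3.10.9, and R 4.3.3 with edgeR 4.0.16 (TMM factors alone, as an alternative scaling) were used.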

Additional observations from a re-analysis of the deposited data

Results flagged for a closer look

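For 4 of the named genes the difference between tumor-bearing and control members went in opposite directions in spleen and BM, with both counting intervals clear of 0 and at least 1 of the differences past the fold. Other genes also had opposite signs without meeting these conditions or without being among the named genes, such as *Tnf*, *Cebpe*, and *Zfp36l1*. The difference between the organs was not tested, as each group was 1 library. *Id2* was at 15.7 CPM in CBM against 24.8 in TBM, and 14.0 in CS against 4.0 in TS, with a log2 difference of -1.80 in spleen and 0.66 in BM; without the cell with most UMIs of the gene in each library these were -1.57 and 0.64. *Id2* encodes an inhibitor of helix-loop-helix factors. *Vegfa* was at 6.64 CPM in CBM against 13.8 in TBM, and 24.6 in CS against 16.7 in TS, with a log2 difference of -0.55 in spleen and 1.05 in BM; without the cell with most UMIs of the gene in each library these were -0.61 and 1.07. *Egr1* was at 10.5 CPM in CBM against 16.8 in TBM, and 87.9 in CS against 31.6 in TS, with a log2 difference of -1.47 in spleen and 0.68 in BM; without the cell with most UMIs of the gene in each library these were -1.45 and 0.62. *Pf4* was at 16.4 CPM in CBM against 25.03 in TBM, and 74.4 in CS against 1.82 in TS, with a log2 difference of -5.36 in spleen and 0.61 in BM; without the cell with most UMIs of the gene in each library these were -0.42 and -0.30. The platelet gene *Pf4* rested on single cells: 1 CS member of 104245 UMIs held 301 of the 309 *Pf4* UMIs there, and 1 TBM member held 387 of 590.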

How the results depend on the processing

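No paired analysis was possible because each group holds 1 library. Of the 8 highest and 8 lowest genes of each comparison (64 differences), 767 values under other settings kept their sign; 258 of these fell outside the counting interval of the reported value and 509 within it. Of 660 values for the 55 differences past the fold, 605 stayed past it. The differences of *Fn1*, *Lgals3*, and *Pf4* that changed sign in the text are not among these 64. Of the gene list medians, 943 moved by less than 0.3 and 65 by more. Without the minimum of 50 UMIs, the genes past the fold rose from 447 to 1711 in TS over CS, from 553 to 1933 in TBM over CBM, from 392 to 1919 in CS over CBM, and from 619 to 2378 in TS over TBM. In TBM over CBM they were 356 without cells carrying markers of another class, and 368 among cells of 50 to 200 granule UMIs per 10000; in TS over TBM they were 983 at a marker sum of 20. The share of members in CBM was 27.7% at 2000 genes, 20.1% at a marker sum of 20, 8.38% without other-class markers, 14.2% when *Nkg7* was not counted among these (a setting added after seeing the data), and 26.6% with the gate applied at 10000 UMIs. The TBM share was 18.1% at 2000 genes, and 11.3%, 3.62%, and 6.31% under the next 3 settings. The CS share was 2.32%, 0.247%, and 0.556% under these 3, and the TS share 0.443%, 0.0386%, and 0.520%, or 0.827% with the gate at 10000 UMIs. With a granule threshold of 10, the granule-rich share was 91.1% in CBM and 98.9% in TBM, and 91.8% (84.4% to 96.4%) in CS and 98.7% (93.1% to 100.0%) in TS, whose intervals then overlapped. Without the UMI minimum, the higher genes were 25.5% in TS over CS, 42.1% in TBM over CBM, 73.9% in CS over CBM, and 65.9% in TS over TBM, against 21.7%, 37.1%, 45.7%, and 15.5%, so the balance turned in the last comparison and in CS over CBM. Without the highest cell of each gene, a setting added after seeing the data, they were 29.4% in CS over CBM and 7.45% in TS over TBM. Where a value moved, the cause was not tested beyond the cells or genes each setting left. Settings that left fewer than 20 cells in a library were not run: the granule-poor range in comparisons with a spleen library, and, without other-class markers, those with CS or TS (with *Nkg7* not counted, those with CS).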

Other observations

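Heme and iron handling genes had median log2 differences of 0.02 in TS over CS, 0.17 in TBM over CBM, 0.12 between the control organs, and 0.10 between the tumor-bearing organs. Of these, *Mt1* was past the fold in both organs between tumor-bearing and control members. The genes of the sort and lineage antibodies had medians of -0.75 in TS over CS, -0.36 in TBM over CBM, 0.15 between the control organs, and 0.28 between the tumor-bearing organs. Within that list *Cd34* was at 138 CPM in CBM against 57.4 in TBM, and 169 in CS against 107 in TS, and *Kit*, whose protein was used to sort the CD45+ cells, at 68.5 CPM in CBM against 48.5 in TBM, and 105 in CS against 58.9 in TS.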
